A study of Mus musculus with 20 samples.

Results

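The genes described here encode the cytosolic and mitochondrial chaperones of BV-2 cells, a mouse microglial cell line. They were chosen by name: 38 gene symbols were matched to their Ensembl identifiers, and all 38 were found among the 55487 genes of the count table. In role, 8 of them encode the subunits of the chaperonin CCT, 5 encode prefoldin subunits, 11 encode cytosolic HSP70 proteins with their J proteins and partners, 7 encode cytosolic HSP90 proteins with their co-chaperones, 5 encode mitochondrial chaperones, and the last pair are a small heat shock protein and the heat shock factor Hsf1. Expression was high enough to test in 37 of them, among 12799 genes tested in all.

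RNA was sequenced from 20 cultures of wild-type (WT) BV-2 cells, in 4 groups of 5. Young cells were at a low passage, and aged cells had gone through long-term cultivation, which the study used as a model of microglial aging in a dish. Cells of each age were left untreated or received bacterial lipopolysaccharide (LPS), a ligand of the receptor TLR4, at 100 ng/ml for 6 hours. All 4 groups derive from 1 immortalised line, first made from the brains of very young mice and kept in medium with serum, so the replicates are cultures of that line and not animals. The labels number the replicates 1 to 5 as batches, each with 1 culture of every group. P-values therefore measure the spread between cultures of this line. The study describes the replicates as independent and the aliquots of both ages as thawed together. It also states that aged cells were frozen after the long cultivation and then used as aliquots. Whether each replicate was cultivated long-term on its own is not stated. Age therefore cannot be told apart here from other differences between the stored stocks.

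Chaperones bind proteins that are not yet folded, or that have lost their fold, and keep them from clumping. In the cytosol, HSP70 and its J proteins act on many new chains, prefoldin hands actin and tubulin to the CCT ring, and HSP90 finishes the folding of kinases and hormone receptors. In mitochondria, a separate HSP70 pulls imported chains in and a separate barrel, built from the Hspd1 and Hspe1 proteins, folds them. In a heat shock response the factor HSF1 binds repeats of the letters GAA in promoters and raises many of these genes together.

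Total counts per culture ranged from 11371508 to 16829292, and mitochondrially encoded genes took 0.517% to 1.3% of them. TMM, the scaling of library sizes used throughout, gave factors of 0.891 to 0.973 in LPS cultures and 1.04 to 1.08 in untreated ones. Scaled by library sizes alone, the median log2 fold change of all genes after LPS fell by 0.22 in young and by 0.16 in aged cultures. For that reason the counts of member genes that rose and fell after LPS are given on both scales below, by group of genes. All 13 macrophage and microglial marker genes examined passed the expression filter, with Cd68 at the highest median and Cx3cr1 and P2ry12, markers of resting microglia in the brain, below 2 CPM (counts scaled to library size) in every culture. Gfap, Rbfox3, Mog, Col1a1 and Cldn5, defining markers of astrocytes, neurons, oligodendrocytes, fibroblasts and endothelium, stayed at or under 3 counts in every culture.

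The 38 genes together took 1.76% ± 0.0522 (SD, n = 5) of all counts in young untreated cultures, 1.95% ± 0.0737 in young LPS cultures, 1.91% ± 0.0397 in aged untreated cultures and 2.06% ± 0.033 in aged LPS cultures. Levels between genes can be compared only per length, here as CPM per kilobase of all annotated exons. On that scale Hsp90ab1, the HSP90 protein that cells make without stress, was highest in young untreated cultures at 1087 ± 46.2 (SD, n = 5), followed by Hspd1 at 459.9 ± 6.19, Hspa8 at 389 ± 19.6 and Hsp90aa1 at 358 ± 8.81. Dnaja1 at 7.25 ± 0.242, Dnajb6 at 7.5 ± 0.2 and Pfdn4 at 8.25 ± 0.874 had the lowest means of the tested members, with ranges that overlapped each other. Annotated exons of rare isoforms lengthen a gene and so lower its value on this scale.

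After LPS, 29 of the 37 chaperone genes tested rose in young cultures and 3 fell, at an adjusted p below 0.05 (edgeR quasi-likelihood F-test, Benjamini-Hochberg adjustment over all genes tested), where 31.2% of all genes tested rose and 33.5% fell. In aged cultures 26 rose and 2 fell, where 27.5% of all genes rose and 26.9% fell. The median log2 fold change of the chaperones was 0.32 in young and 0.20 in aged cultures, beside -0.011 and 0.00051 over all genes tested. Scaled by library sizes alone, 17 rose and 6 fell in young cultures, where 18.8% of all genes rose and 50% fell. In aged cultures 11 rose and 7 fell on that scale, where 17% of all genes rose and 42.8% fell. The 5 untreated and the 5 LPS values did not overlap for 29 of the 37 members in young cultures, beside 49.1% of all genes. In aged cultures they did not overlap for 26 of the 37, beside 40.1% of all genes. All rises were modest: Dnaja2, the largest, rose 1.84-fold in young cultures.

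**Figure D1:**
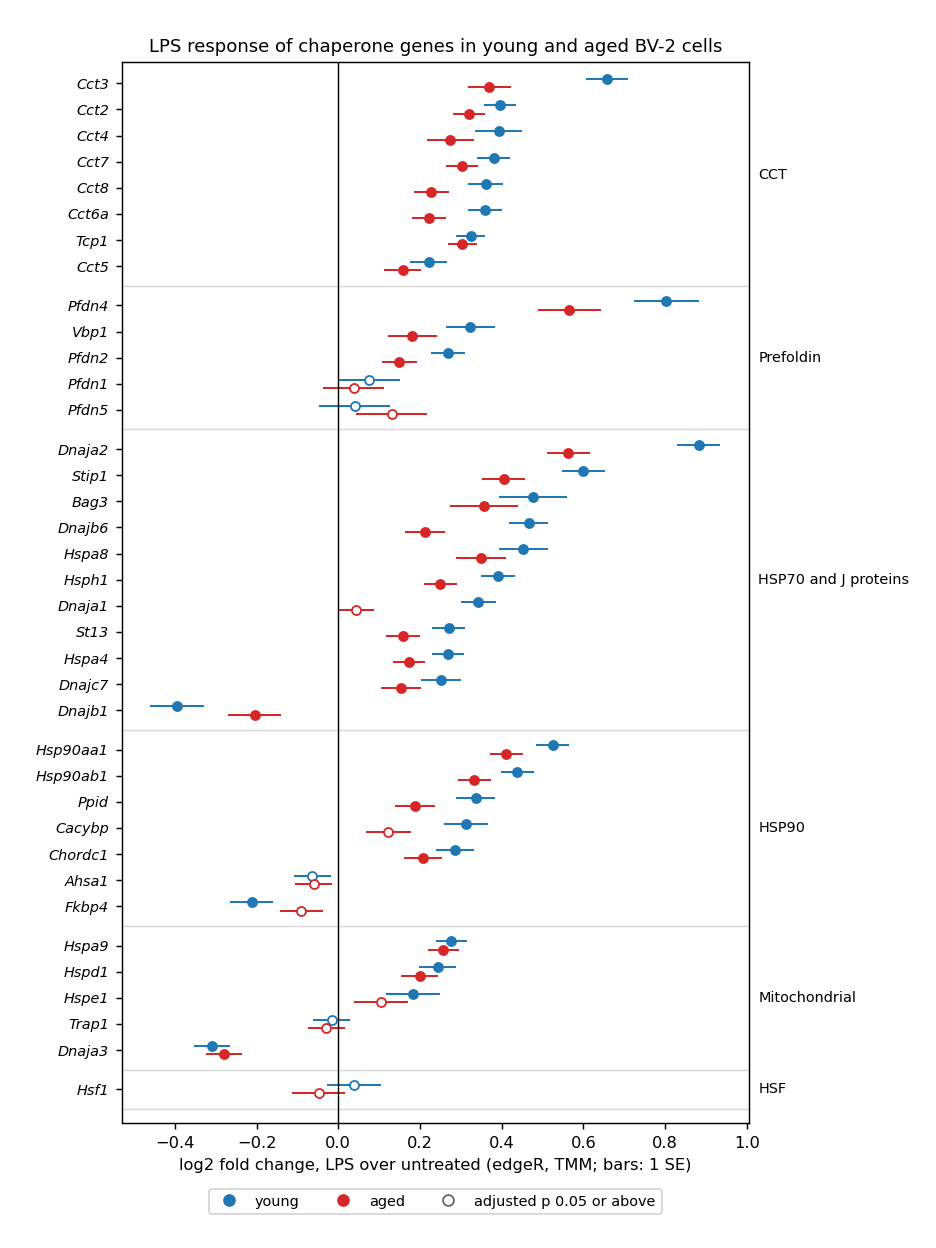
Log2 fold change of LPS over untreated (horizontal axis, edgeR with TMM) for the 37 tested chaperone genes, grouped by role, in young (blue) and aged (red) cultures; bars are 1 SE and open points did not pass the test. Nearly all points lie right of 0, from -0.40 for Dnajb1 to 0.88 for Dnaja2 in young cultures; with library sizes alone in place of TMM all points move left, by about 0.22 in young and 0.16 in aged cultures.

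The sequences that HSF1 is known to bind were searched for in RefSeq promoters of build GRCm38.p6, since many of these genes are textbook targets of that factor. The windows ran from 250 bases before to 50 bases after each transcript start. A run of 3 alternating units, GAANNTTCNNGAA or TTCNNGAANNTTC on the strand of the gene, was found for 5 of the 29 members in the table (17.2%), against 0.662% of all 27025 genes with a promoter there. A run of 2 units, GAANNTTC or TTCNNGAA, which every longer run contains, was found for 12 of the 29 (41.4%), against 17% of all genes. The spellings with 3 units are the same motif read on opposite strands. Those with 2 units are different arrangements, and each reads the same on both strands. Both strands were therefore covered. The promoters of Hspa8, Ppid, Cct4, Hsp90aa1, Pfdn1, Hspa9, Hsp90ab1, Hsf1 and St13 were not analysed here. Sites are printed below with the matched letters in capitals, first those with 3 or more units. As examples with 2 units, sites of Dnaja1, Fkbp4 and Hspb1 follow, of which Hspb1 was too low to test.
Hspd1 (chr1:55088053-55088082, minus strand): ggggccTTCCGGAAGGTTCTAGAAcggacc
Chordc1 (chr9:18292259-18292288, plus strand): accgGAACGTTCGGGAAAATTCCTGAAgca
Dnajb6 (chr5:29735843-29735872, plus strand): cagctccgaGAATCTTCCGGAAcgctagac
Hsph1 (chr5:149636280-149636309, minus strand): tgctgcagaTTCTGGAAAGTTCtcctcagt
Dnaja1 (chr4:40722333-40722362, plus strand): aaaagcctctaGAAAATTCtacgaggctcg
Fkbp4 (chr6:128438789-128438818, minus strand): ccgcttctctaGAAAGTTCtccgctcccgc
Hspb1 (chr5:135887791-135887820, plus strand): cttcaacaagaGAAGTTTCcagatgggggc

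The Hspd1 site lies 144 bases before the start of Hspd1 and, read on the other strand, 89 bases before the start of Hspe1, because the pair face away from each other over 1 shared promoter. The Chordc1 site begins 4 bases before its start, the Dnajb6 site 46 or 127 bases before its annotated starts, and the Hsph1 site 16 or 37 bases after its starts. All 5 genes with 3 units rose in young cultures after LPS, by log2 fold changes of 0.18 (Hspe1) to 0.47 (Dnajb6). All but Hspe1 rose in aged cultures too. These calls are on the TMM scale, where 29 of the 37 members rose in young and 26 in aged cultures. With library sizes alone, Hsph1 and Dnajb6 were called higher in young cultures and none of the 5 in aged ones. Hspe1 was then at -0.039 in young and -0.056 in aged cultures. Members with and without the motif had like medians on the TMM scale. In young cultures the median log2 fold change was 0.34 for 11 tested members with 2 units or more and 0.31 for 17 without. In aged cultures the medians were 0.21 and 0.17. Split by 3 units, the medians in young cultures were 0.29 for 5 members with such a run and 0.32 for 23 without. In aged cultures this split also gave 0.21 and 0.17. Members whose promoters were not analysed are in neither set. Dnaja2 and Pfdn4, which rose most, had neither motif in these windows. A match of letters is not evidence of binding, and no match says only that these letters are not in the window.

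The CCT ring, which folds actin, tubulin and other cytosolic proteins, is built from 8 different subunits, and the genes of all 8 rose after LPS at both ages, with log2 fold changes of 0.22 to 0.66 (median 0.37) in young and 0.16 to 0.37 (median 0.29) in aged cultures. On library sizes alone, 7 rose in young and 4 in aged cultures, and Cct5 was at 8.94e-07 in young and -0.0025 in aged cultures. The genes lie on 8 chromosomes (10, 3, 11, 15, 5, 6, 16 and 17), so they are not neighbours. Their levels differed per length, from 52.7 CPM per kilobase for Cct7 to 195 for Cct5 in young untreated cultures.

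Cct3 moved most. It measured 518, 509.7, 494, 504 and 566 CPM in young untreated replicates 1 to 5 and 868, 868, 789, 722 and 839.7 CPM after LPS. In aged cultures it measured 564, 567, 539.8, 547 and 594 CPM untreated and 703, 725, 757, 692 and 754 CPM after LPS. The treated and untreated values did not overlap at either age, and the log2 fold changes were 0.66 ± 0.052 (SE, edgeR adjusted p = 1.8e-10) and 0.37 ± 0.052 (adjusted p = 2.62e-06). Tcp1, the subunit after which the complex was first named, measured 450.3, 466, 451, 448 and 458 CPM in young untreated and 590.3, 584, 545, 543 and 584 CPM in young LPS cultures. The aged values of Tcp1 were 489, 492, 477, 477 and 484 CPM untreated and 593, 614, 594, 596 and 589 CPM after LPS, so its rise was nearly the same at both ages, by 0.32 ± 0.035 and 0.30 ± 0.035 on the log2 scale.

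Cct2 measured 459, 454, 442, 462 and 487 CPM in young untreated cultures and 603, 612, 560.2, 615 and 644 CPM after LPS. In aged cultures it measured 504, 501, 498, 506 and 525 CPM, and 633, 638, 621, 633 and 636 CPM after LPS. Treated and untreated cultures were apart at both ages, and the untreated aged values all lay above the untreated young ones. Cct4 measured 365, 339, 322, 339.7 and 394 CPM in young untreated cultures and 474, 452, 424, 440.1 and 519.9 CPM after LPS. The aged values of Cct4 were 397, 412, 396, 394 and 426 CPM, and 481, 505, 466, 478 and 520.4 CPM after LPS. Replicates 1 and 5 were the high ones among the young untreated Cct4 values, and replicate 5 was highest in all 4 groups.

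Cct5 measured 547, 548, 510.1, 529 and 565 CPM in young untreated and 669.6, 630.4, 573, 594 and 680.1 CPM in young LPS cultures. In aged cultures Cct5 was at 575, 584, 573, 544 and 584 CPM, and at 632, 631, 641, 636 and 649.6 CPM after LPS. It had the smallest rise of the ring at both ages. Cct6a measured 421, 434, 404, 425 and 468 CPM in young untreated and 551, 564, 541, 524 and 581 CPM in young LPS cultures. Its aged values were 475, 496, 484, 479 and 499 CPM, and 547, 579, 569, 564 and 579.8 CPM after LPS. As for Cct2, no aged untreated value reached down to the young untreated ones.

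Cct7 measured 366, 357, 341, 350.0 and 373 CPM in young untreated and 479.8, 474, 444, 444 and 484 CPM in young LPS cultures. In aged cultures it was at 409.9, 404, 382, 375 and 390.4 CPM, and at 495, 493, 481, 475 and 475 CPM after LPS. All 4 sets were apart except the LPS values of both ages. Cct8 measured 581, 574, 555, 604 and 634 CPM in young untreated and 768, 761, 719, 736 and 803 CPM in young LPS cultures. The aged values of Cct8 were 637, 646, 596, 629.5 and 651 CPM, and 739, 757, 718, 734 and 751 CPM after LPS. Its young and aged values overlapped with and without LPS.

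**Figure D2:**
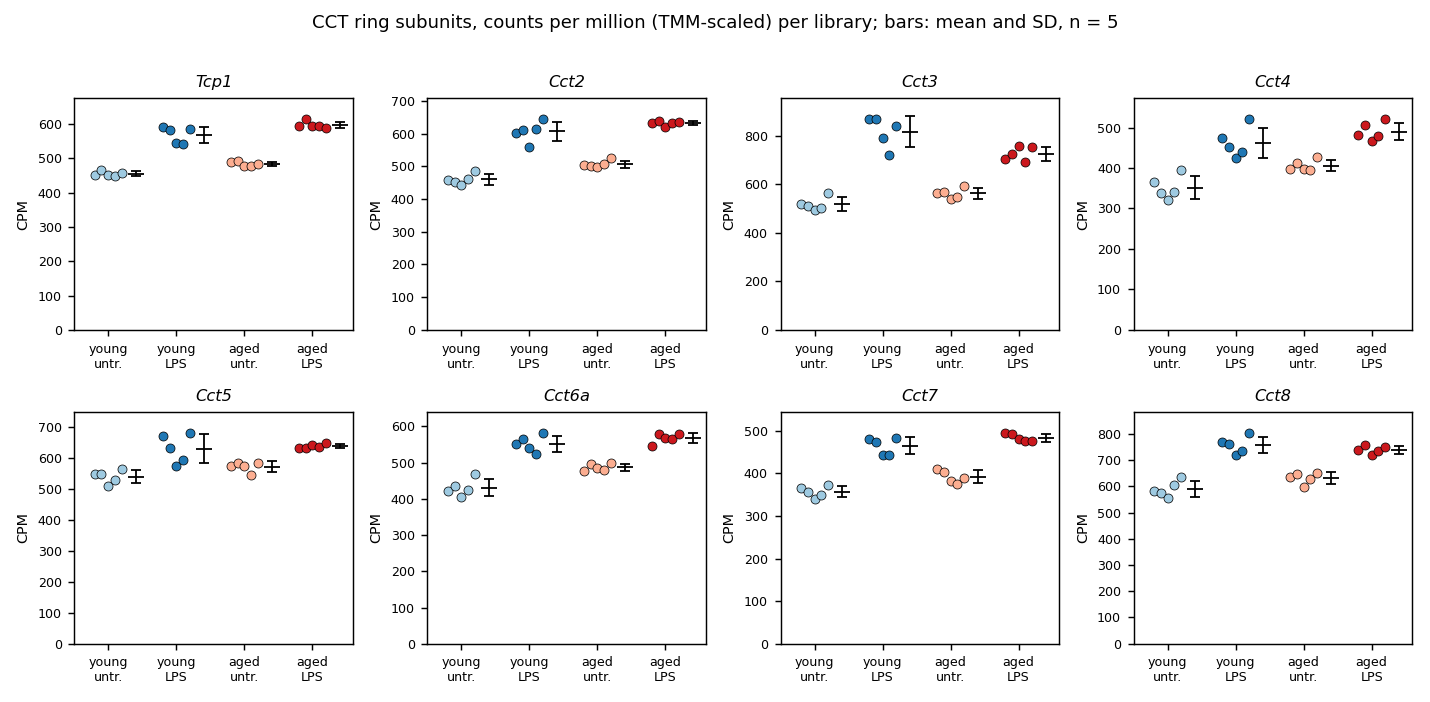
TMM-scaled CPM (vertical axes, from 0) of the 8 CCT subunit genes in the 20 cultures, by group, with replicates 1 to 5 from left to right in each group and the mean with its SD (n = 5) beside them. Every LPS point lies above the untreated points of the same age, and LPS levels of both ages overlap for all 8 genes; with library sizes alone the LPS rises shrink and that of Cct5 in aged cultures turns to -0.0025.

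Prefoldin, the jaw-shaped complex that carries unfolded actin and tubulin to CCT, responded unevenly. Of the 5 subunits among the members, Pfdn2, Pfdn4 and Vbp1 rose after LPS at both ages, and Pfdn1 and Pfdn5 did not pass the test in either. On the scale of library sizes, 1 of the 5 rose at each age, and the median over the 5 in aged cultures turned from 0.15 to -0.011. Pfdn4, whose levels were among the lowest of all members, measured 18.0, 21.3, 19.9, 20.7 and 24.0 CPM in young untreated and 36.3, 38.9, 34.9, 33.1 and 38.2 CPM in young LPS cultures. In aged cultures it measured 23.4, 26.8, 23.2, 24.6 and 28.0 CPM untreated and 33.3, 39.6, 39.0, 34.1 and 40.4 CPM after LPS. The treated values lay clear above the untreated ones at both ages, with log2 fold changes of 0.80 ± 0.080 (SE, edgeR adjusted p = 7.94e-09) and 0.57 ± 0.078 (adjusted p = 2.04e-06). Pfdn2 rose by 0.27 ± 0.042 and 0.15 ± 0.042, and Vbp1 by 0.32 ± 0.061 and 0.18 ± 0.060, the latter a call that was lost without replicate 5. The values of Pfdn1 were 0.076 ± 0.074 and 0.037 ± 0.074, and those of Pfdn5 were 0.041 ± 0.087 and 0.13 ± 0.087. With library sizes alone these values fell below 0, to -0.14 and -0.12 for Pfdn1 and to -0.18 and -0.029 for Pfdn5, and none was called. Pfdn6, a further subunit from the wider lists described last, was at -0.011 ± 0.057 in young and 0.025 ± 0.057 in aged cultures and was not called. Pfdn5 shares 165 bases of exon with Myg1 on the same strand, and the median counts of these genes were 734.5 and 620.5, so reads of that stretch cannot be assigned with certainty.

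In young cultures the HSP70 group held the largest changes among the members in both directions, Dnaja2 upward and Dnajb1 downward. In young cultures 10 of its 11 genes rose after LPS and Dnajb1 fell, and in aged cultures 9 rose and Dnajb1 fell, leaving Dnaja1 uncalled. Without TMM, 7 rose and 1 fell in young cultures, and 3 rose and 2 fell in aged cultures. Dnaja2, a J protein that delivers clients to HSP70, measured 248, 253, 238, 253 and 257 CPM in young untreated and 452, 497, 404, 454 and 494 CPM in young LPS cultures. In aged cultures Dnaja2 measured 285, 297, 259, 271 and 274 CPM untreated and 420.3, 429, 393, 394 and 412 CPM after LPS. Every LPS value exceeded every untreated value, and the rises were 0.88 ± 0.053 (SE, edgeR adjusted p = 1.27e-12) in young and 0.56 ± 0.052 (adjusted p = 4.73e-09) in aged cultures.

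Stip1, also called HOP, which bridges HSP70 and HSP90, measured 393, 389, 372, 390.4 and 407 CPM in young untreated and 672, 598, 549, 546 and 593 CPM in young LPS cultures. In aged cultures it measured 434, 424, 417, 405 and 434 CPM, and 534, 564, 610.5, 538 and 552 CPM after LPS. Stip1 rose 1.52-fold in young and 1.32-fold in aged cultures, without overlap between treated and untreated values. Bag3, which releases clients from HSP70 and steers them to autophagy, measured 45.4, 47.4, 54.3, 51.4 and 49.4 CPM in young untreated and 53.7, 71.2, 77.3, 71.1 and 71.1 CPM in young LPS cultures. Its aged values were 51.1, 55.8, 46.1, 53.2 and 47.5 CPM, and 74.1, 64.1, 59.0, 59.9 and 67.8 CPM after LPS. The young LPS replicate 1 stayed within the untreated range, and the rises of Bag3 were 0.48 ± 0.083 and 0.36 ± 0.083 on the log2 scale.

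Hspa8, the HSP70 that all cells make, was the most abundant gene of this group and rose from 1674 ± 84.5 to 2291 ± 155 CPM (SD, n = 5) in young and from 1667 ± 114 to 2123 ± 172 CPM in aged cultures. Its treated values of 2128 to 2544 and 1942 to 2397 CPM lay above the untreated ones of 1577 to 1804 and 1531 to 1811 CPM. The log2 fold changes of Hspa8 were 0.45 ± 0.061 (SE, edgeR adjusted p = 8.04e-07) and 0.35 ± 0.061 (adjusted p = 3.99e-05). Hsph1 and Hspa4, HSP110 proteins that reload HSP70 with ATP, rose by 0.39 ± 0.041 and 0.27 ± 0.040 in young and by 0.25 ± 0.041 and 0.17 ± 0.040 in aged cultures. St13, which holds HSP70 in its client-bound form, rose by 0.27 ± 0.041 and 0.16 ± 0.041. Dnajc7, a J protein that also binds HSP90, rose by 0.25 ± 0.048 and 0.15 ± 0.048. With library sizes alone the aged values of St13 and Dnajc7 turned to -0.0019 and -0.0068. Without replicate 2 or replicate 3 the call of Dnajc7 in aged cultures was lost.

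Dnajb1, the J protein best known as HSP40 and a textbook heat shock gene, went the other way. It fell from 44.8 ± 2.78 to 34 ± 2.58 CPM (SD, n = 5) in young and from 43.2 ± 3.08 to 37.5 ± 2.43 CPM in aged cultures. The young values, 41.1 to 48.0 CPM untreated and 31.7 to 37.7 CPM after LPS, did not overlap, whereas the aged values did, by 1 LPS culture at 40.6 CPM and 1 untreated culture at 40.4 CPM. The fall was -0.40 ± 0.065 (SE, edgeR adjusted p = 1.42e-05) in young and -0.20 ± 0.065 (adjusted p = 0.0102) in aged cultures, and it was seen in 5 of 5 batches at each age.

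**Figure D3:**
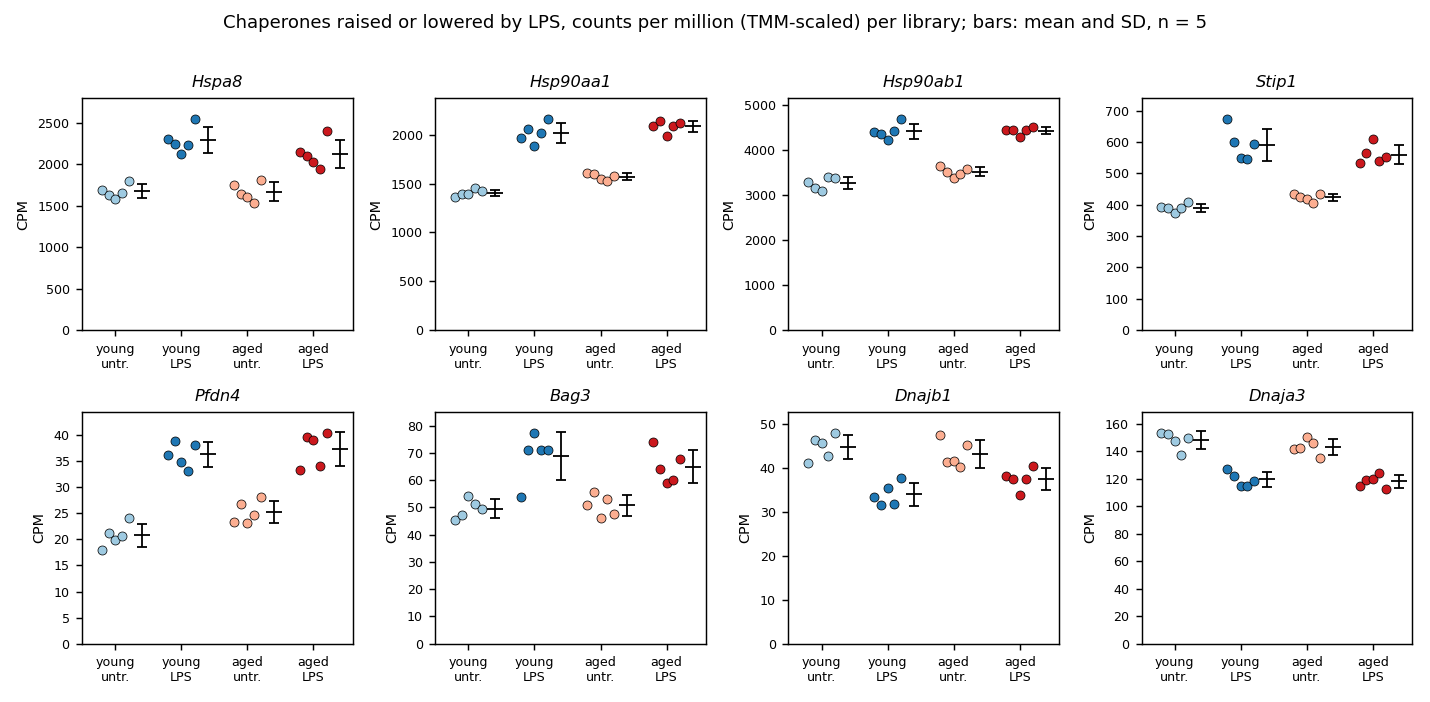
TMM-scaled CPM (vertical axes, from 0) of 8 chaperone genes in the 20 cultures, with replicates 1 to 5 from left to right in each group and the mean with its SD (n = 5) beside them. Hspa8, Hsp90aa1, Hsp90ab1, Stip1, Pfdn4 and Bag3 are higher after LPS at both ages, with the young LPS replicate 1 of Bag3 low at 53.7 CPM, and Dnajb1 and Dnaja3 are lower; all these directions are the same with library sizes alone.

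Both cytosolic HSP90 genes rose after LPS. Hsp90aa1, the stress-inducible form, measured 1361, 1394, 1398, 1454 and 1422 CPM in young untreated and 1971, 2064, 1888, 2025 and 2162 CPM in young LPS cultures. In aged cultures it measured 1607, 1597, 1544, 1524 and 1583 CPM, and 2093, 2142, 1989.9, 2097 and 2124 CPM after LPS. The 4 groups formed 3 levels, with young untreated lowest, aged untreated next without overlap, and the LPS cultures of both ages together at the top. The rises were 0.52 ± 0.040 (SE, edgeR adjusted p = 9.31e-11) in young and 0.41 ± 0.040 (adjusted p = 9.8e-09) in aged cultures. Hsp90ab1 rose from 3259 ± 139 to 4416 ± 165 CPM (SD, n = 5) in young and from 3513 ± 104 to 4427 ± 80.7 CPM in aged cultures.

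The co-chaperones of HSP90 divided. Chordc1 rose by 0.29 ± 0.046 in young and 0.21 ± 0.046 in aged cultures, and Ppid (cyclophilin 40) by 0.34 ± 0.048 and 0.19 ± 0.048. Cacybp, which binds the ubiquitin ligase Siah1, rose in young cultures by 0.31 ± 0.055. Its aged value of 0.12 ± 0.055 missed the threshold (edgeR adjusted p = 0.0628) and passed it with the replicate block (adjusted p = 0.00551), and it was at -0.038 with library sizes alone. Fkbp4, the immunophilin of steroid receptor complexes, fell in young cultures by 0.21 on the log2 scale (SE 0.053, edgeR adjusted p = 0.00124). It measured 414, 364, 342, 362 and 399 CPM untreated and 350.5, 304, 303, 315 and 349.8 CPM after LPS, with replicates 1 and 5 high in both sets so that the ranges overlapped. The aged values of Fkbp4 were 429, 403, 414, 403 and 415 CPM untreated and 385, 395, 377, 385 and 397 CPM after LPS, which did not overlap, although the change of -0.091 ± 0.052 did not pass the test (adjusted p = 0.151). Ahsa1, the activator of the HSP90 ATPase, was at -0.064 ± 0.045 and -0.060 ± 0.045, with overlapping values in all groups. Over the 7 genes of this group, 5 rose and 1 fell in young cultures and 4 rose in aged ones. Without TMM it was 2 and 2 at each age, and Ahsa1 was then at -0.28 in young and -0.22 in aged cultures.

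The mitochondrial chaperones had the lowest medians of the 5 larger groups, 0.18 in young and 0.10 in aged cultures. Hspa9, the HSP70 of the mitochondrial matrix, rose by 0.28 ± 0.038 in young and 0.26 ± 0.038 in aged cultures. Hspd1, the HSP60 barrel, rose by 0.24 ± 0.046 and 0.20 ± 0.046. Hspe1, the lid of that barrel, rose by 0.18 ± 0.065 in young cultures (edgeR adjusted p = 0.0185), a call that was lost without replicate 2, without replicate 3 and without replicate 5, and its aged value was 0.10 ± 0.065 (adjusted p = 0.185). Hspe1 and Hspd1 share 112 bases of exon on opposite strands, and the strand setting of the counting is not given in the sources used here. Dnaja3, the mitochondrial J protein, fell from 148 ± 6.36 to 119.5 ± 5.27 CPM (SD, n = 5) in young and from 143 ± 5.66 to 118 ± 4.5 CPM in aged cultures. Its values of 137 to 153 and 115 to 127 CPM in young cultures, and of 135 to 150.4 and 113 to 124 CPM in aged cultures, did not overlap. Dnaja3 fell by 0.31 and 0.28 on the log2 scale (edgeR adjusted p = 2.03e-06 and 1.23e-05). It shares 153 bases of exon with Coro7 on the other strand. Trap1, the HSP90 of mitochondria, was at -0.016 ± 0.045 and -0.029 ± 0.045. Without TMM the 3 rises in young cultures were lost, with Hspe1 at -0.039, and Dnaja3 and Trap1 were called lower, at -0.53 and -0.24. In aged cultures Hspa9 alone then rose, by 0.097, Hspd1 at 0.039 and Hspe1 at -0.056 were not called, and Dnaja3 and Trap1 were called lower, at -0.44 and -0.19.

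The heat shock factor Hsf1 itself had 65.0 to 84.0 CPM in young untreated and 68.7 to 79.7 CPM in young LPS cultures, and 72.6 to 81.2 and 71.5 to 81.2 CPM in aged ones. Its LPS values were 0.039 ± 0.065 and -0.048 ± 0.065 and did not pass the test (edgeR adjusted p = 0.626 and 0.563). Without TMM they were -0.18 and -0.21, both called. Hspb1 (HSP27), the small heat shock protein, was not expressed at a level that could be tested: 19 of 20 cultures had 0 counts and 1 young LPS culture had 1 count, at a limit of 3 counts, or 0.165 to 0.296 CPM. Its promoter holds a pair of 2-unit motifs, at 117 and 97 bases before the start.

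Without LPS, 11 of the 37 chaperone genes were higher in aged than in young cultures and 1, Trap1, was lower (edgeR, adjusted p below 0.05), where 3.71% of all genes tested were higher and 7.81% lower. The differences were small. The median over the 37 was 0.11 on the log2 scale, beside -0.014 over all genes tested, and 30 of 37 were above 0. Ranges of the 5 young and 5 aged cultures were apart for 12 of the 37 members, beside 10.4% of all genes. The count moved with the fit: with the replicate block 18 were higher and 1 lower, beside 6% and 11.2% of all genes. Scaled by library sizes alone, 19 were higher and 1 lower, beside 4.94% and 6.77% of all genes. Without a filter on low counts 7 were called in all, and without replicate 2 only 2.

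By role, 4 of the 8 CCT genes (Cct2, Cct4, Cct6a and Cct7) and 4 of the 7 HSP90 genes (Hsp90aa1, Ppid, Chordc1 and Cacybp) were higher in aged untreated cultures. All genes of both groups were above 0, also with library sizes alone, and the largest differences were 0.20 for Cct4 and 0.23 for Ppid. Pfdn4 was higher by 0.28 ± 0.080 (SE, edgeR adjusted p = 0.027), although the young replicate 5, at 24.0 CPM, lay above the lowest aged values. Ppid was higher by 0.23 ± 0.048 (adjusted p = 0.00275) and did not overlap: it measured 153, 154, 172, 176 and 162 CPM in young and 184, 201, 191, 198 and 184 CPM in aged untreated cultures. After LPS Ppid measured 198, 197, 205, 212 and 216 CPM in young and 209.8, 236, 212, 217 and 216 CPM in aged cultures, which overlapped.

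Cct4 was higher by 0.20 ± 0.057 and Cct6a by 0.18 ± 0.042, and the untreated cultures listed with the ring were apart by age for both, by less than 1 CPM for Cct4. In the HSP70 group, Dnaja1 was higher by 0.20 ± 0.043 (edgeR adjusted p = 0.00444) and Hsph1 by 0.17 ± 0.041 (adjusted p = 0.0111). Cacybp was higher by 0.17 ± 0.055 (adjusted p = 0.0475), with 225, 239, 225, 239.9 and 262 CPM in young and 262, 283, 258, 257 and 279 CPM in aged untreated cultures. After LPS Cacybp measured 295, 319, 278, 274 and 313 CPM in young and 277, 308, 278, 284 and 311 CPM in aged cultures. Replicate 5 of the young untreated cultures reached into the aged range, and after LPS both ages covered the same range.

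Of these 12 calls, those of Ppid and Dnaja1 were kept without each replicate in turn. Without replicate 2 the calls of Cct2, Cct4, Cct6a, Cct7, Pfdn4, Hsph1, Hsp90aa1, Chordc1, Cacybp and Trap1 were lost, and 4 to 7 calls were lost without any other replicate. Tcp1, Cct8, Dnaja2, Dnajc7, Hsp90ab1, Fkbp4 and Hspa9 did not pass the test without the block, at 0.090 to 0.15, and passed it with the replicate block, at adjusted p values of 0.00969 (Dnaja2) to 0.0462 (Tcp1). Trap1, which guards mitochondria against oxidative stress, measured 282, 247, 253, 239 and 249 CPM in young and 225, 231, 239, 219 and 220.2 CPM in aged untreated cultures. It touched at 239 CPM and was lower by 0.16 in aged cultures (SE 0.045, edgeR adjusted p = 0.0211).

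**Figure D4:**
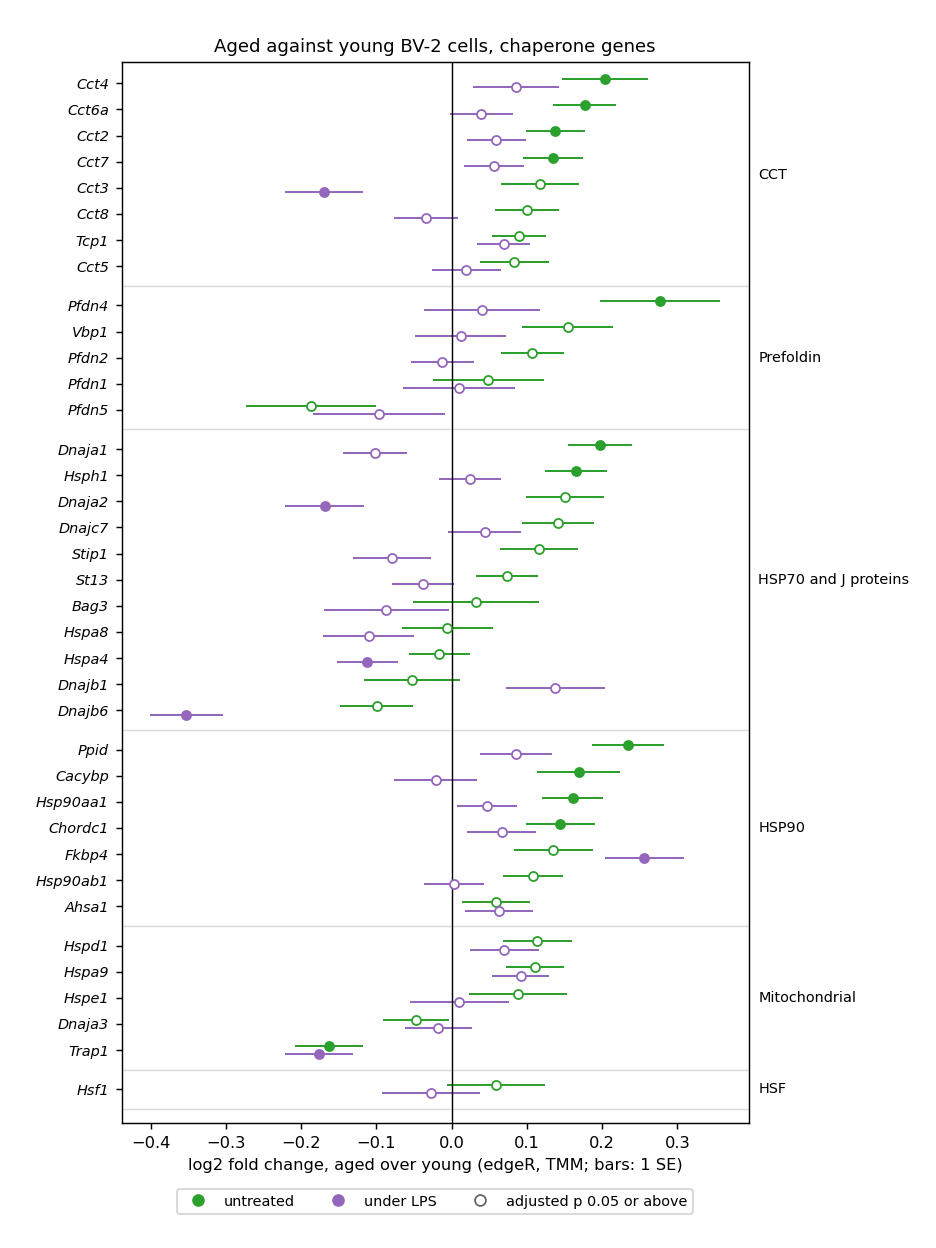
Log2 fold change of aged over young cultures (horizontal axis, edgeR with TMM) for the 37 tested chaperone genes by role, untreated (green) and under LPS (purple); bars are 1 SE and open points did not pass the test. Most green points lie right of 0, up to 0.28 for Pfdn4, and purple points scatter around 0 from -0.35 (Dnajb6) to 0.26 (Fkbp4); with library sizes alone the purple points move right by about 0.080.

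Under LPS fewer chaperone genes were called between the ages. Aged cultures were higher than young ones in 1 chaperone gene, Fkbp4, and lower in 5, Dnajb6, Trap1, Cct3, Dnaja2 and Hspa4, where 14% of all genes tested were higher and 15% lower. The median over the 37 was 0.010 beside 0.0085 over all genes, and the ranges of both ages were apart for 5 members, as for 14.8% of all genes. These directions depended on the scaling: with library sizes alone 13 genes were higher, among them 5 CCT and 5 HSP90 genes, and 1 was lower, Dnajb6, beside 24.7% and 10.6% of all genes. With only the LPS groups in the fit 3 were called.

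Dnajb6, a J protein that holds back protein aggregates, differed most, by -0.35 ± 0.048 (SE, edgeR adjusted p = 1.02e-05). It measured 64.2, 66.0, 63.8, 60.3 and 59.8 CPM in young and 48.5, 48.6, 51.3, 51.0 and 46.5 CPM in aged LPS cultures, without overlap. Fkbp4 was higher by 0.26 ± 0.053 (adjusted p = 0.000782), with the lowest aged LPS value of 377 CPM above the highest young one of 350.5 CPM. Trap1 was lower by 0.18 (SE 0.045, adjusted p = 0.00513): it measured 268, 250.1, 246, 239 and 253 CPM in young and 222, 222, 231, 220.0 and 216 CPM in aged LPS cultures. Trap1 thus had a lower level in aged cultures with and without LPS on the TMM scale. The untreated call was lost without replicate 1, 2 or 5, without a filter on low counts and with only the untreated groups in the fit. The call under LPS was kept without each replicate in turn. With library sizes alone the difference under LPS was -0.095 and did not pass the test (edgeR adjusted p = 0.0735).

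Cct3 and Dnaja2 were lower by 0.17 each (adjusted p = 0.0164 and 0.0175) with overlapping values. Hspa4 was lower by 0.11 (adjusted p = 0.0394), with 844, 902, 852, 810.2 and 876 CPM in young and 767, 811, 797, 783 and 807 CPM in aged LPS cultures, overlapping by less than 1 CPM. Its untreated values were 661, 735, 726, 723 and 712 CPM in young and 701, 736, 686, 694 and 699 CPM in aged cultures. The call of Hspa4 was lost without any single replicate, that of Dnaja2 without replicate 2, 4 or 5, and that of Cct3 without replicate 1 or 2. With the replicate block Hspa8 and Dnaja1 were also lower in aged LPS cultures (edgeR adjusted p = 0.0125 and 0.0473) and Hspa9 higher (adjusted p = 0.0274).

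Whether the LPS response itself differed between the ages was tested by the interaction, the aged log2 fold change minus the young one. It rests on the same 20 cultures as the comparisons above, and the LPS and age comparisons share their groups, so these results are not independent of each other. It was below 0 for 32 of the 37 chaperone genes, whereas 46.1% of all genes tested were below 0, and its median was -0.10 beside 0.019 over all genes. A smaller response in aged cultures gives a value below 0 for a gene that rises and above 0 for one that falls. All 26 members called higher after LPS at both ages were below 0. Dnajb1, Fkbp4 and Dnaja3, which fell in young cultures, were above 0. The share over all genes mixes genes that rose and fell, so it is not a like comparison for members that mostly rose. The test called 4 members, all lower in aged cultures: Dnaja2, Dnaja1, Cct3 and Dnajb6, where 2.27% of all genes tested were called lower and 4.12% higher. On library sizes alone 27 of 37 were below 0 and 3 were called lower, beside 1.59% of all genes called lower and 6.88% higher.

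Dnaja1 (ENSMUSG00000028410, GRCm38 chr4:40722150-40737149, plus strand) is a J protein partner of HSP70. It measured 61.5, 66.0, 60.4, 62.8 and 62.3 CPM in young untreated and 78.6, 82.2, 76.8, 78.1 and 81.3 CPM in young LPS cultures. The aged values were 73.9, 70.1, 65.9, 74.3 and 74.6 CPM untreated and 73.0, 73.6, 72.2, 75.5 and 75.7 CPM after LPS. Young cultures separated by treatment, aged ones did not, and the aged untreated values lay between both young groups, touching the upper end of the untreated ones by 1 culture. Dnaja1 rose by 0.34 ± 0.043 (SE, edgeR adjusted p = 3.17e-07) in young cultures and was at 0.044 ± 0.043 (adjusted p = 0.406) in aged ones, a difference of -0.30 ± 0.061 (adjusted p = 0.00407). The call of the difference was kept without each replicate in turn. With library sizes alone the aged value was -0.12 and passed the test (edgeR adjusted p = 0.0297), and the difference was -0.24. Dnaja1 shares 608 bases of exon with Smu1 on the other strand, whose median count was 97.7% of its own.

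Dnaja2 (ENSMUSG00000031701, chr8:85537633-85555344, minus strand) rose at both ages, by 0.32 less in aged cultures (SE 0.074, adjusted p = 0.0104). Cct3 (ENSMUSG00000001416, chr3:88297116-88321767, plus strand) rose by 0.29 less (SE 0.073, adjusted p = 0.0197). Dnajb6 (ENSMUSG00000029131, chr5:29735688-29818134, plus strand) measured 47.6, 44.8, 45.2, 45.2 and 44.6 CPM in young and 44.0, 44.6, 41.2, 43.7 and 38.8 CPM in aged untreated cultures. With the LPS values above, it rose by 0.47 ± 0.048 in young and 0.21 ± 0.049 in aged cultures, a difference of -0.25 ± 0.068 (edgeR adjusted p = 0.0282). All young LPS values of Dnajb6 lay above all values of the other 3 groups. The difference kept its sign in 5 of 5 batches for these 4 genes. The call of Dnajb6 was lost without replicate 1, 2, 3 or 4, that of Dnaja2 without replicate 2 or 5 and that of Cct3 without replicate 1 or 2, so that without replicate 2 Dnaja1 alone was called. With the replicate block Cacybp was called as well, at -0.19 (edgeR adjusted p = 0.0192).

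**Figure D5:**
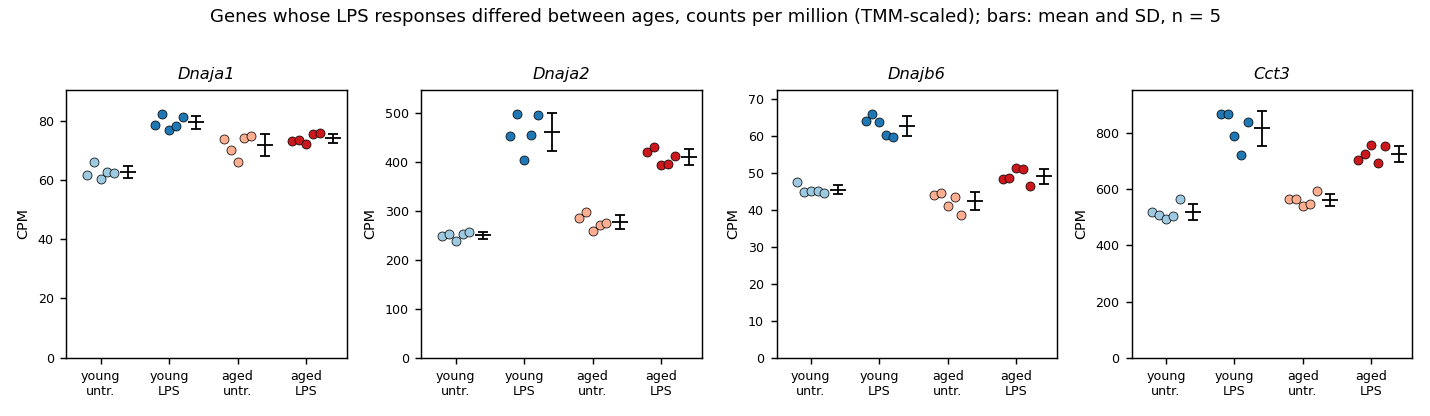
TMM-scaled CPM (vertical axes, from 0) of the 4 chaperone genes whose LPS response differed between ages, in the 20 cultures, with replicates 1 to 5 from left to right in each group and the mean with its SD (n = 5) beside them. Dnaja1 rises from a mean of 62.6 to 79.4 CPM in young cultures and lies at 71.8 and 74.0 CPM in aged ones, and Dnaja2, Dnajb6 and Cct3 rise at both ages with a smaller step in aged cultures; with library sizes alone the difference of Dnajb6 was -0.19 and did not pass the test.

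In the wider chaperone lists, the shares called after LPS were near those over all genes tested. Of 96 further chaperones, co-chaperones and mitochondrial proteases, 81 were tested, and 25 rose and 23 fell after LPS in young cultures, beside 31.2% and 33.5% of all genes tested, with a median of 0.00050 on the log2 scale. In aged cultures 19 rose and 21 fell, beside 27.5% and 26.9% of all genes. Between untreated ages 4 were higher and 3 lower in aged cultures, beside 3.71% and 7.81%, and under LPS 11 were higher and 8 lower, beside 14% and 15%. These counts are on the TMM scale. Dnajb4, a J protein close to Dnajb1, rose most, from 11.6 ± 1.75 to 29.95 ± 5.05 CPM (SD, n = 5) in young and from 12.2 ± 1.22 to 19.6 ± 2.32 CPM in aged cultures. Its log2 fold changes were 1.37 ± 0.12 and 0.68 ± 0.12, and their difference of -0.69 ± 0.17 passed the test (edgeR adjusted p = 0.0136), kept its sign in 4 of 5 batches, and was not called without replicate 2 or without replicate 5. Dnajb14, a J protein of the endoplasmic reticulum membrane, fell most, from 121 ± 7.17 to 39.6 ± 4.34 CPM in young and from 91.6 ± 5.28 to 37.6 ± 3.69 CPM in aged cultures.

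Other J proteins and HSP70 relatives divided as well. Dnajb5 rose by 1.29 and Txndc9, a partner of CCT, by 0.74 in young cultures. Dnajb5 and Dnajc21 rose by 0.63 and 0.44 in aged ones. Treated and untreated values of Dnajb5 overlapped at both ages. Hspb6 and Fkbp5 fell by 0.94 and 0.73 in young cultures, and Hspa2 and Hsf4 by 0.73 and 0.69 in aged ones, with overlap for Hspa2. Untreated, Hspa4l, Rpap3 and Ruvbl1 were higher by 0.28, 0.19 and 0.18 in aged cultures. Dnajb14, Pdcl3 and Spg7 were lower there, at -0.40, -0.37 and -0.22. Young and aged untreated values overlapped for Hspa4l, Rpap3, Ruvbl1 and Spg7. Without replicate 2, 4 of these calls between untreated ages were lost. Under LPS, Hspb6, Hspa14 and Fkbp5 were higher by 0.61, 0.45 and 0.41 in aged cultures, with overlapping values for Hspb6. Dnajb4, Pdrg1 and Pdcl3 were at -0.61, -0.33 and -0.22 under LPS. Several inducible heat shock genes stayed under the limit of 3 counts in every culture: Hspa1a, Cryab and Hspb8 had 0 counts in all 20 cultures, and Hspa1b had at most 2 and Dnaja4 at most 1. Hspa1a and Hspa1b are near-identical copies, and how reads matching both were counted is not given in the sources used here.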

How the data were processed

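Poly(A) RNA of 20 BV-2 cultures was made into stranded libraries and sequenced on an Illumina instrument. The authors aligned reads with STAR 2.6.1d to GRCm38 and deposited raw counts per gene from featureCounts 1.5.1. The submitters' processing notes also list GRCh38 and hg19 without a role, and the strand and multi-mapping settings of the counting are not given in the sources used here. From these counts, edgeR 4.0.16 (R 4.3.3) was run with its expression filter, TMM and the quasi-likelihood F-test on 1 model of 4 groups, with Benjamini-Hochberg adjustment over all 12799 genes tested. CPM values are TMM-scaled. Levels per kilobase use the merged exons of GENCODE vM21, which held 55227 of the 55487 identifiers.

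Replicate numbers are batches in the labels. Across genes, what set a culture off from its group mean was correlated between cultures sharing a number, with a mean r of 0.146 (range -0.214 to 0.394), 0.276 and 0.26 between LPS and untreated cultures of young and aged cells, 0.111 between untreated ages and 0.0425 between ages under LPS. The replicate block was an alternative fit, as were DESeq2 1.42.0, other scalings, other filters, fits of the compared groups only and leaving out each replicate, 12 in all. Replicates differed beyond sampling noise (chi-square per degree of freedom 2.35 to 25.3 over 40 pairs). On simulated data for the untreated age comparison edgeR recovered 195 of 200 genes changed 2-fold, with 6 false calls among 12622 genes. The planted changes were far larger than any member difference in that comparison, which reached 0.28 on the log2 scale. Simulated cultures also shared no replicate effect, so recovery of such small differences was not tested.

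The members and the gene lists were chosen with earlier results of these data known. Values per culture are given for the CCT subunits, for the members past the threshold with the largest changes in each comparison, and for members called by the interaction. Of the wider lists, the 3 largest rises and falls past the threshold in each comparison were named. Promoters came from RefSeq tables of GRCm38.p6.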

Additional observations from a re-analysis of the deposited data

Results flagged for a closer look

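Of 148 groups of 5 values tested with Dixon's rule, 11 held a culture standing apart from its group, where chance gives about 5%. In the CCT ring these were Cct2 in aged LPS replicate 3 (621 CPM), Cct5 in aged untreated replicate 4 (544 CPM) and Tcp1 in aged LPS replicate 2 (614 CPM). In the HSP70 group Dnajb6 stood apart in young untreated replicate 1 (47.6 CPM), Bag3 in young LPS replicate 1 (53.7 CPM, with the others at 71.1 to 77.3 CPM) and St13 in young untreated replicate 3 (387 CPM). Hspd1 was low in young LPS replicate 3 (1378 CPM) and high in aged untreated replicate 3 (1442 CPM). Pfdn1 was high in aged LPS replicate 5 (39.5 CPM), Ahsa1 high in young LPS replicate 5 (391 CPM) and Hsf1 low in young LPS replicate 2 (68.7 CPM).

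The LPS response differed between the ages by the interaction test (aged minus young, log2) for Cct3 (-0.29), Dnaja1 (-0.30), Dnaja2 (-0.32) and Dnajb6 (-0.25) among the members. In the wider lists it differed for Dnajb4 (-0.69), Txndc9 (-0.30) and the mitochondrial protease gene Yme1l1 (-0.23), and in the other direction for Hspa14 (0.35) and Fkbp5 (0.34). All 5 of these calls in the wider lists were lost without replicate 2, and those of Txndc9 and Yme1l1 also with library sizes alone. The cause of these differences was not tested.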

How the results depend on the processing

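The LPS calls of members in young cultures (32) stayed at 31 or 32 with the replicate block, DESeq2, DESeq2's size factors in edgeR, both filters and the 2-group fits, and at 31 to 32 without each replicate. In aged cultures (28) they were 25 to 29 under these, and 27 to 28 without each replicate. Library sizes alone gave 23 calls in young and 18 in aged cultures and turned 7 values called on at least one of the scales: in aged cultures Cct5 (-0.0025), Pfdn2 (-0.011), Dnaja1 (-0.12), Dnajc7 (-0.0068) and St13 (-0.0019), in young ones Hspe1 (-0.039) and Hsf1 (-0.18). Values called on neither scale also turned for Pfdn1 and Pfdn5 at both ages and for aged Cacybp and Hspe1, as given in the report. The untreated age comparison (12) gave 19 with the replicate block, 20 with library sizes alone, 17 with DESeq2, 7 without a filter and 2 to 8 without each replicate. Under LPS (6) it gave 9 with the replicate block, 14 with library sizes alone, 3 without a filter, 3 with the LPS groups only and 3 to 5 without each replicate. The interaction (4) gave 5 with the block and with DESeq2, 3 with library sizes alone and 1 to 3 without each replicate. Beyond the calls named in the report, the block changed none of the members' calls. At these totals Hspb1 could not be tested. The cause of the changes was not tested, beyond fewer cultures or other scaling.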
